A study of Mus musculus with 6 samples.

Results

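The genes described here are 10 Wnt ligands and secreted Wnt inhibitors, taken by name from a table of 55298 mouse genes: the ligand genes Wnt2, Wnt4, Wnt5a, Wnt5b and Wnt9a and the inhibitor genes Sfrp1, Sfrp2, Dkk2, Dkk3 and Wif1. Each name matched 1 row. They were measured by RNA-seq in cancer-associated fibroblasts sorted from orthotopic lung tumours of wt C57BL/6 mice over 8 weeks old. The apCAFs libraries 1, 2 and 3 hold cells positive for MHCII and the nonapCAFs libraries 4, 5 and 6 hold cells negative for it. All 6 share the rest of the gate, which took cells of high forward scatter that lacked CD45, CD31, EPCAM and mCherry and carried PDPL and PDGFRa, spelled as in the labels. Tumours were pooled and both populations came from the same 3 independent experiments, so a library does not stand for 1 animal, and the labels do not say which libraries share an experiment. The comparison asks how these genes differ between class II-positive and class II-negative fibroblasts.

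Wnt proteins are lipid-modified secreted signals that act over short distances. They bind Frizzled receptors, and together with the coreceptors LRP5 and LRP6 they stabilise beta-catenin, which switches on target genes with TCF/LEF factors; other Wnts, Wnt5a among them, act through ROR receptors and without beta-catenin. Secreted inhibitors work outside the cell: SFRP proteins and WIF1 bind Wnt ligands, and DKK proteins such as DKK2 bind the LRP coreceptors. In the lung, mesenchymal cells are a known source of Wnt ligands for the alveolar epithelium.

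The deposited values are normalized counts in whole numbers, and the sequencing depth is unknown. Libraries apCAFs 3 and nonapCAFs 6 stood apart from the other libraries of their groups, and for genes whose values rest on them the difference is also given without them. Fibroblast genes were abundant in both groups: Col1a1 was lowest at 311391 in nonapCAFs 6 and highest at 1365163 in apCAFs 3, and 4 of 9 fibroblast genes were called higher in apCAFs. H2-Aa, a class II gene behind the sort, had 11556 to 22115 in apCAFs and 187 to 252 in nonapCAFs. Marker genes of other cells were read in every library as well, and their lists are given by the range of their summed levels. Mesothelial genes summed to 40331 to 51979 in apCAFs but to 5277 to 6001 in nonapCAFs (7 of 9 called higher). The sums of pericyte and smooth muscle genes were 53769 to 55027 in apCAFs, against 12524 to 17494 (5 of 11 called). Type II pneumocyte genes reached 143057 in apCAFs 1 and 119816 in apCAFs 2, while the 24252 of apCAFs 3 fell inside the nonapCAFs range of 22014 to 29982 (0 of 12 called by limma). Scd1, at 14628 in apCAFs 3 and 12751 to 18710 in nonapCAFs, made up most of these lower sums. The surfactant gene Sftpc differed far more, with 48853 in apCAFs 1 and 40491 in apCAFs 2. It had 226 in apCAFs 3 and 124 to 185 in nonapCAFs. The type I pneumocyte sums were 16678 to 16906 and 9004 to 10887 (3 of 8 called), the epithelial sums 11771 to 18967 and 7409 to 10827 (2 of 12), with Epcam at 21 to 209 and 3 to 13. Endothelial sums were 6582 to 8082 and 5003 to 5358 (1 of 9), with Pecam1 at 20 to 129 over the 6 libraries. Leukocyte sums were 4064 to 12074 and 2020 to 2853 (0 of 12 called by limma), with Ptprc at 2 to 65. Lyz2, which is on the type II pneumocyte list too, made up most of the leukocyte sums of apCAFs 1 and 2. It had 9898 and 9470 there, 640 in apCAFs 3 and 226 to 1028 in nonapCAFs. No marker was at 0 in all libraries and none was called lower. Over all genes tested, limma called 3.91% higher and 0.486% lower. The part of these cell types in the differences described here was not tested. In bulk samples, fewer cells of a type and less RNA per cell cannot be told apart.

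Of the 10 genes, 8 lay higher in each apCAFs library than in any nonapCAFs library, 1 (Dkk2) lay lower in each apCAFs library, and 1 (Wif1) overlapped. Over all 36443 genes tested, the groups did not overlap for 17.1% in the higher and 15.4% in the lower direction; among the 17829 genes averaging 100 or more, which include 9 of the 10, these shares were 25.5% and 25.9%. Under limma's adjusted threshold 3 genes rose in apCAFs, Sfrp1, Dkk3 and Wnt5a, and none fell; the background was 3.91% of tested genes called higher and 0.486% called lower, or 5.87% and 0.0673% among genes averaging 100 or more. With no adjustment (limma p under 0.05), 8 of the 10 lay higher and 1 lower, where 13.1% and 6.19% of all tested genes did (17.6% and 7.4% of those averaging 100 or more). The authors' deposited table lists the same 8 as higher and Dkk2 as lower at its own adjusted p under 0.05, where 20.6% and 9.77% of its genes are so listed. The median log2 difference of the 10 genes was 1.30, against -0.04 for all genes tested. The 10 genes were chosen with earlier results of these data known, so these counts are descriptions and no test of the list. Among the ligands and inhibitors outside the 10, limma called 0 of 13 and 0 of 11, with medians of 0.38 and 0.04. In each of these lists 7 genes averaged under 10.

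**Figure D1:**
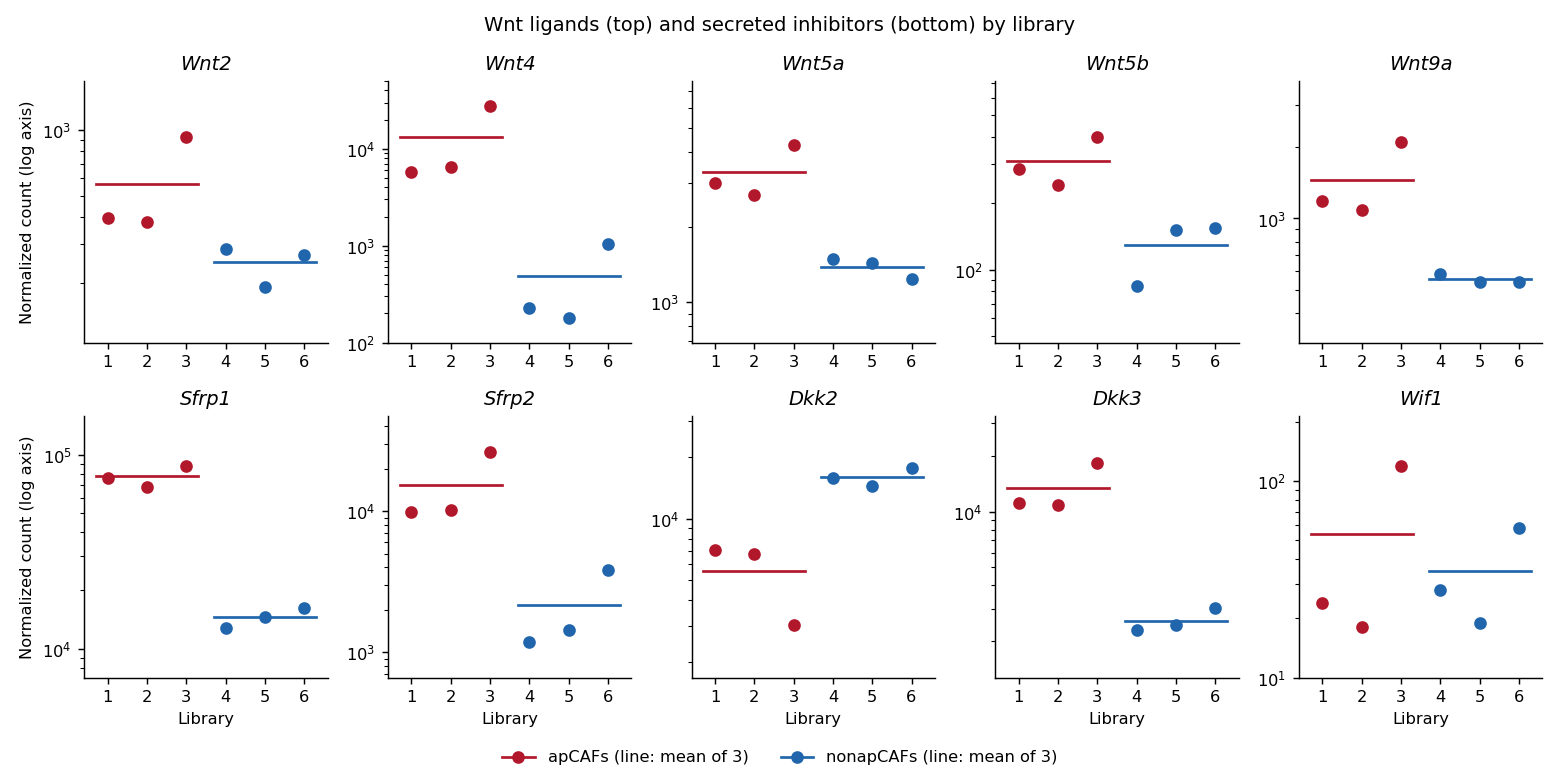
Normalized counts (log axis) of the 10 genes in each of the 6 libraries, with ligands in the top row and inhibitors in the bottom row; points are libraries and lines the group means. Red and blue points are separated in every panel except that of Wif1, and Dkk2 is the panel in which the blue points lie on top.

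Among the ligands, Wnt4 showed the widest gap. Wnt4 (chromosome 4, 137277489 to 137299726, mm10) is known for its roles in kidney and female reproductive tract development. Its normalized count was 5815, 6418 and 27830 in apCAFs 1, 2 and 3 and 225, 180 and 1053 in nonapCAFs 4, 5 and 6. The lowest apCAFs library stood 5.52-fold above the highest nonapCAFs library, while apCAFs 3 and nonapCAFs 6 each lay several-fold above the other libraries of their own group. The fitted difference was 28.9-fold (log2 4.85, SE 0.95, 95% interval of the fold 5.53 to 151), and it did not pass (limma adjusted p = 0.0599). The log2 difference was 4.12 without apCAFs 3, 5.65 without nonapCAFs 6 and 4.92 without both. It did pass with a term for apCAFs 3 and nonapCAFs 6, an analysis chosen after the data were seen (limma adjusted p = 0.00623); over the alternatives the adjusted p ran from 3.98e-05, in the authors' deposited table, to 0.297.

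Wnt5a, the best known ligand of the route that does without beta-catenin, was the only ligand that limma called. Wnt5a (chromosome 14, 28504750 to 28527448) had 3006, 2693 and 4269 in apCAFs 1, 2 and 3 and 1491, 1431 and 1241 in nonapCAFs 4, 5 and 6. All apCAFs values exceeded all nonapCAFs values, with a fitted rise of 2.35-fold (log2 1.23, SE 0.22, limma adjusted p = 0.0486). The call was close to the threshold. Leaving out apCAFs 1 ended it (limma adjusted p = 0.114), as did leaving out apCAFs 2 (0.0818), nonapCAFs 4 (0.138), nonapCAFs 5 (0.149) or nonapCAFs 6 (0.126). Scaling to library totals (limma adjusted p = 0.0602), quantile normalization (0.0615), upper-quartile centring (0.0625), and no filter on low values (0.0942) ended it too. So did the term for apCAFs 3 and nonapCAFs 6 (limma adjusted p = 0.0564). The range over all alternatives was 5.38e-08 to 0.273.

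The remaining ligands lay higher in apCAFs by similar sizes without passing. The close relative of Wnt5a, Wnt5b (chromosome 6, 119432531 to 119544347) had 287, 243 and 398 in apCAFs 1, 2 and 3 and 84, 151 and 154 in nonapCAFs 4, 5 and 6. Wnt9a (chromosome 11, 59306928 to 59333552), known from joint development, had 1186, 1085 and 2104 against 585, 543 and 541. Wnt2 (chromosome 6, 17988940 to 18030585), which helps to specify the embryonic lung, had 397, 380 and 928 against 284, 192 and 268. In each of these genes apCAFs 3 was the highest library and the groups did not overlap, though for Wnt2 the closest libraries differed by only 1.34-fold. Fitted folds were 2.41 for Wnt5b (95% interval 1.36 to 4.28, limma adjusted p = 0.115), 2.50 for Wnt9a (1.52 to 4.14, limma adjusted p = 0.0754) and 2.12 for Wnt2 (1.03 to 4.35, limma adjusted p = 0.243). For Wnt2 the log2 difference of 1.08 became 0.67 without apCAFs 3 and 0.73 without apCAFs 3 and nonapCAFs 6. Without apCAFs 3, Wnt9a passed (log2 1.03, limma adjusted p = 0.0243; 1.22e-05 to 0.311 over the alternatives).

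Sfrp1, which encodes a Frizzled-related protein that binds Wnt ligands, was the most abundant of the 10 genes per kilobase in apCAFs and had the smallest limma p. Sfrp1 (chromosome 8, 23411502 to 23449632) had 75709, 68679 and 88274 in apCAFs 1, 2 and 3 and 12775, 14567 and 16267 in nonapCAFs 4, 5 and 6. The libraries of each group lay close together, and the rise was 5.33-fold (log2 2.41, SE 0.17, limma adjusted p = 0.00981). Leaving out any 1 library kept the call, with log2 2.32 to 2.50 and an adjusted p of at most 0.0452. With an experiment term under any of the 6 possible pairings, or with the close libraries averaged, none of the 36443 genes passed in limma (with p unadjusted, 3491 to 4786 lay higher and 1209 to 1894 lower), so these fits could call no gene named here; the log2 difference of Sfrp1 was 2.41 and 2.42 in them.

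Its relative Sfrp2 (chromosome 3, 83766321 to 83774316) had 9875, 10151 and 26306 in apCAFs 1, 2 and 3 and 1186, 1446 and 3803 in nonapCAFs 4, 5 and 6. As for Wnt4, apCAFs 3 and nonapCAFs 6 were the high libraries of their groups, and the groups did not overlap. The fitted difference was 7.39-fold (log2 2.89, SE 0.62, 95% interval of the fold 2.52 to 21.7) and did not pass (limma adjusted p = 0.073); it was log2 2.42 without apCAFs 3, 3.40 without nonapCAFs 6 and 2.93 without both. With the term for apCAFs 3 and nonapCAFs 6 it did pass (limma adjusted p = 0.00665; 0.00119 to 0.327 over the alternatives). Sfrp2 shares 347 exon bases with Gm26771 on the opposite strand, which read 1415, 1595 and 4484 in apCAFs 1, 2 and 3 and 138, 178 and 594 in nonapCAFs 4, 5 and 6; the strand setting of the counting is not given in the sources used here, so their reads cannot be told apart. Wnt5a likewise shares 358 exon bases with Gm2670, which had 18 to 122 over the 6 libraries.

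The Dickkopf genes Dkk3 and Dkk2 differed in opposite directions. Dkk3 (chromosome 7, 112116017 to 112159057) encodes the most divergent Dickkopf protein. It had 11191, 10845 and 18218 in apCAFs 1, 2 and 3 and 2292, 2444 and 3017 in nonapCAFs 4, 5 and 6, a rise of 5.07-fold (log2 2.34, SE 0.26, limma adjusted p = 0.0181). All apCAFs libraries stood at least 3.59-fold above the nonapCAFs libraries. The call was lost without apCAFs 1 (limma adjusted p = 0.0551), apCAFs 2 (0.055), nonapCAFs 4 (0.0736) or nonapCAFs 5 (0.0696) and with no filter (0.0538), while the log2 difference stayed between 2.10 and 2.83 over all alternatives (adjusted p 1.09e-20 to 0.211).

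Dkk2 (chromosome 3, 132085292 to 132180304), whose protein binds LRP6 and blocks the beta-catenin route, was the only one of the 10 below 0. It had 7017, 6736 and 3022 in apCAFs 1, 2 and 3 and 15770, 14481 and 17618 in nonapCAFs 4, 5 and 6. Every apCAFs library lay under every nonapCAFs library, and apCAFs 3 was lowest. The fitted level was 3.04-fold higher in nonapCAFs (log2 -1.61, SE 0.37, 95% interval -2.54 to -0.67) and did not pass (limma adjusted p = 0.0873). Without apCAFs 3 it passed with a smaller size (log2 -1.21, limma adjusted p = 0.0253), and over the alternatives the adjusted p ran from 1.16e-05, in the authors' deposited table, to 0.315.

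Wif1 (chromosome 10, 121033960 to 121100650), whose protein binds Wnts through its own WIF domain, was faint. It had 24, 18 and 119 in apCAFs 1, 2 and 3 and 28, 19 and 58 in nonapCAFs 4, 5 and 6. The groups overlapped and the 2 highest values were apCAFs 3 and nonapCAFs 6. The log2 difference was 0.25 (SE 0.83, 95% interval -1.85 to 2.34, limma adjusted p = 0.871), so a several-fold difference in either direction was not detectable here, and the sign turned without apCAFs 3 (log2 -0.57), without nonapCAFs 5 (log2 -0.10), without apCAFs 3 and nonapCAFs 6 together (log2 -0.14) and with quantile-normalized values (log2 -0.16).

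**Figure D2:**
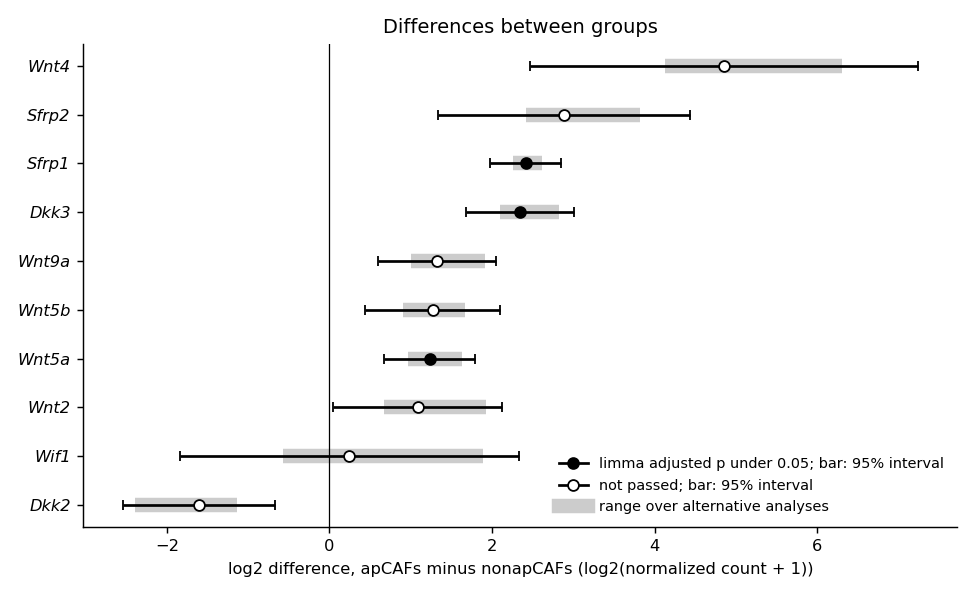
Fitted log2 difference (apCAFs minus nonapCAFs, on log2(normalized count + 1)) with its 95% interval for each gene; filled points passed the adjusted threshold, and grey bands span the estimates over the alternative analyses, the authors' deposited table included. The interval of Sfrp1 is the narrowest, from 1.98 to 2.85, those of Wnt4 and Wif1 are the widest, and Dkk2 alone has its whole interval below 0.

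Sequence upstream of the gene start is shown for Wnt4 and Sfrp2, which had the largest differences, and for Dkk2, the gene of opposite direction. RefSeq promoter windows (GRCm38.p6) were matched for 7 of the 10 genes, all but Wnt5a, Sfrp1 and Dkk3. The bases before the RefSeq start are printed 5′ to 3′ on the strand of the gene, 250 for Sfrp2 and Dkk2 and, up to the GENCODE start of the gene, 104 for Wnt4; capitals mark CTTTG or its reverse complement CAAAG, the core of the TCF/LEF site, and TATAAA or its reverse complement TTTATA, the TATA box; the motifs did not overlap each other. The windows lie at chr4:137277385-137277488 for Wnt4, chr3:83766071-83766320 for Sfrp2 and chr3:132085042-132085291 for Dkk2, all on the plus strand.
Wnt4: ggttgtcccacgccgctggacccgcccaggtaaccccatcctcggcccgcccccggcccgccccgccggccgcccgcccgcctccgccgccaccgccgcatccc
Sfrp2: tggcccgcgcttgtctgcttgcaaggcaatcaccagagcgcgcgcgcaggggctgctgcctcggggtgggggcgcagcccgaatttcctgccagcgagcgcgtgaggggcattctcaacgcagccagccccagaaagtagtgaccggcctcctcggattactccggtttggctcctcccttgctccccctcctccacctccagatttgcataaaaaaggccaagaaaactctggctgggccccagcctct
Dkk2: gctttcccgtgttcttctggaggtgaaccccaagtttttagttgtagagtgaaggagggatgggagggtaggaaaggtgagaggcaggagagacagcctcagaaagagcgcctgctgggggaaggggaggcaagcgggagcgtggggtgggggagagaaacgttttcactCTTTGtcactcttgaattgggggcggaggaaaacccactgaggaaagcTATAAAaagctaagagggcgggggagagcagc
The whole Wnt4 window of 250 bases is 85.2% G or C, that of Sfrp2 63.6% and that of Dkk2 55.6%, against a median of 52.4% over 32817 mouse windows. The Dkk2 window holds CTTTG starting 80 bases and TATAAA starting 32 bases before the start, while the Wnt4 and Sfrp2 windows hold neither. Of all windows, 48.6% hold the TCF/LEF core and 12.4% the TATA box, on either strand and at any position. The matches are given as descriptions, and whether any of them is a working site was not tested.

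Set against each other per kilobase of exon, the make-up of both families differed between the groups. Among the 5 ligands, the level per kilobase in nonapCAFs was 177 ± 17 for Wnt5a, 167 ± 7 for Wnt9a, 116 ± 117 for Wnt4, 110 ± 22 for Wnt2 and 48.9 ± 14.9 for Wnt5b (mean ± SD, n = 3). Wnt5a and Wnt9a did not differ beyond their spread. Wnt5b had the lowest mean and lay under Wnt2, Wnt5a and Wnt9a in each library. Wnt4 could not be placed in this order, since its level per kilobase was the highest of the 5 in nonapCAFs 6 (251) and the lowest in nonapCAFs 5 (42.9). In apCAFs, Wnt4 led with 3184 ± 2990 per kilobase, followed by Wnt9a (438 ± 169), Wnt5a (425 ± 107), Wnt2 (252 ± 138) and Wnt5b (117 ± 30). Wnt4 was the highest of the 5 in each apCAFs library; Wnt9a and Wnt5a did not differ beyond their spread. Wnt7b, a ligand outside the 10 that is best known from the lung epithelium, exceeded all of them in nonapCAFs, where its level per kilobase was 1673 ± 228 against 694 ± 479 in apCAFs. Of the summed level of all 19 Wnt ligand genes, Wnt4 made up 35.03%, 39.3% and 71.1% in apCAFs 1, 2 and 3 and 1.88%, 1.64% and 10.3% in nonapCAFs 4, 5 and 6, and Wnt7b 26.2%, 23.1% and 1.58% against 65.8%, 65.8% and 58.2%. The shares of both genes were separated between the groups in all 6 libraries.

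Among the inhibitors, Dkk2 was the highest per kilobase in nonapCAFs, while in apCAFs it lay below Sfrp1, Sfrp2 and Dkk3. In nonapCAFs the level per kilobase was 4307 ± 426 for Dkk2, 3325 ± 399 for Sfrp1, 996.3 ± 669.6 for Sfrp2, 769 ± 114 for Dkk3 and 14.4 ± 8.4 for Wif1 (mean ± SD, n = 3). Dkk2 stood above Sfrp1 in each nonapCAFs library, and Sfrp2 and Dkk3 did not differ beyond their spread. In apCAFs the order was Sfrp1 (17739 ± 2271), Sfrp2 (7173 ± 4370), Dkk3 (3995 ± 1239), Dkk2 (1509 ± 602) and Wif1 (22.1 ± 23.3), with Sfrp2 and Dkk3 again within their spread, although Sfrp2 was above Dkk3 in each apCAFs library. Of the summed level of all 16 secreted inhibitor genes, Dkk2 made up 45.5%, 40.8% and 40.8% in nonapCAFs 4, 5 and 6 and 6.76%, 6.89% and 2.05% in apCAFs 1, 2 and 3. The summed level per kilobase of these 16 genes was 10204 ± 1270 in nonapCAFs and 31406 ± 7343 in apCAFs, and that of the 19 ligand genes 2637 ± 200 and 5728 ± 3121. Both sums did not overlap between the groups, and the ligand sum in apCAFs was 3958, 3895 and 9331 in libraries 1, 2 and 3. In nonapCAFs 4, 5 and 6 it was 2847, 2613 and 2449. The separation of the ligand sums rests on Wnt4, which gave 1387, 1530 and 6636 in apCAFs 1, 2 and 3. It gave 53.6, 42.9 and 251 in nonapCAFs 4, 5 and 6. With Wnt4 left out, the ligand sums of the groups overlap.

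**Figure D3:**
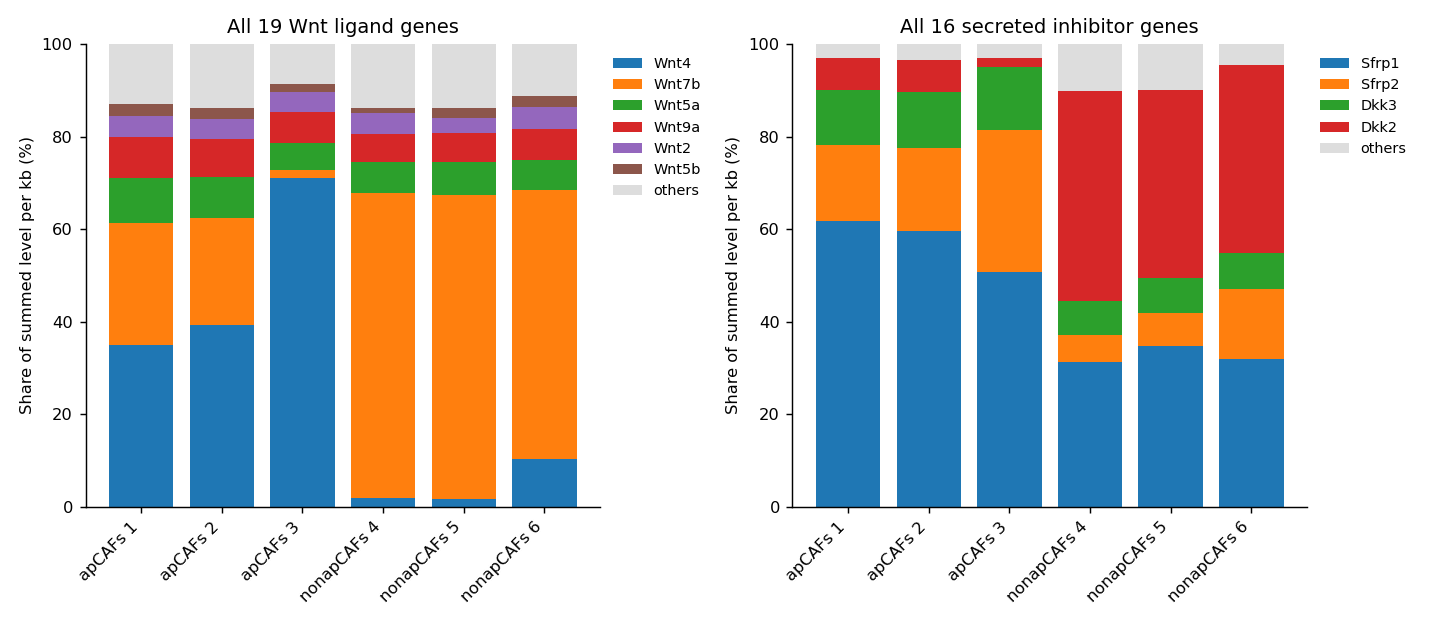
Share (%) of each gene in the summed level per kilobase of exon, by library, for all 19 Wnt ligand genes (left) and all 16 secreted inhibitor genes (right); genes not named are pooled in grey. Wnt7b fills more than any other ligand in the nonapCAFs bars and Wnt4 in the apCAFs bars, and the Dkk2 part is at least 40.8% in nonapCAFs and at most 6.89% in apCAFs.

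Within each group, Wnt4, Sfrp2 and Wif1 varied in the same libraries. In apCAFs 3 the level was 4.55-fold the mean of apCAFs 1 and 2 for Wnt4, 2.63-fold for Sfrp2 and 5.67-fold for Wif1. In nonapCAFs 6 it was 5.2-fold the mean of nonapCAFs 4 and 5 for Wnt4, 2.89-fold for Sfrp2 and 2.47-fold for Wif1. All 6 ratios lie above the 95th percentile of the 17829 genes averaging 100 or more, which is 2.07 in apCAFs and 1.58 in nonapCAFs; Wif1 averages 44.3 and is not among those genes, so for it this is no like comparison. Wnt2 was above it in apCAFs only (2.39-fold, against 1.13-fold in nonapCAFs 6), and Dkk2 was under the 5th percentile of 0.522 in apCAFs 3 (0.439-fold). Within the sets of libraries that lie close together, the ratio of the mean of apCAFs 1 and 2 to that of nonapCAFs 4 and 5 was 30.2 for Wnt4, and the ratio of apCAFs 3 to nonapCAFs 6 was 26.4; for Sfrp2 these were 7.61 and 6.92, and for Sfrp1 5.28 and 5.43. For Dkk2 they were 0.455 and 0.172. Each of the 8 genes that lay higher in apCAFs had its highest value in apCAFs 3. That library also had the highest mesothelial sum, 51979 against 42396 in apCAFs 1 and 40331 in apCAFs 2. Wt1 held most of this excess, at 14937 against 5484 and 5441. Of the other mesothelial genes, more were highest than lowest in apCAFs 3. Msln (8928 against 11837 and 10700) and Upk3b (4316 against 5204 and 4523) were lowest in apCAFs 3. Lrrn4 (6045 against 4913 and 4325) and Gpm6a (5241 against 4256 and 4543) were highest there. So were Bnc1 (4085 against 2968 and 3177), Krt19 (3805 against 3451 and 3410) and Calb2 (446 against 40 and 103). Upk1b lay in between (4176 against 4243 and 4109). The type II pneumocyte sum of apCAFs 3 was the lowest of the apCAFs libraries. The part of these cells in the values was not tested.

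**Figure D4:**
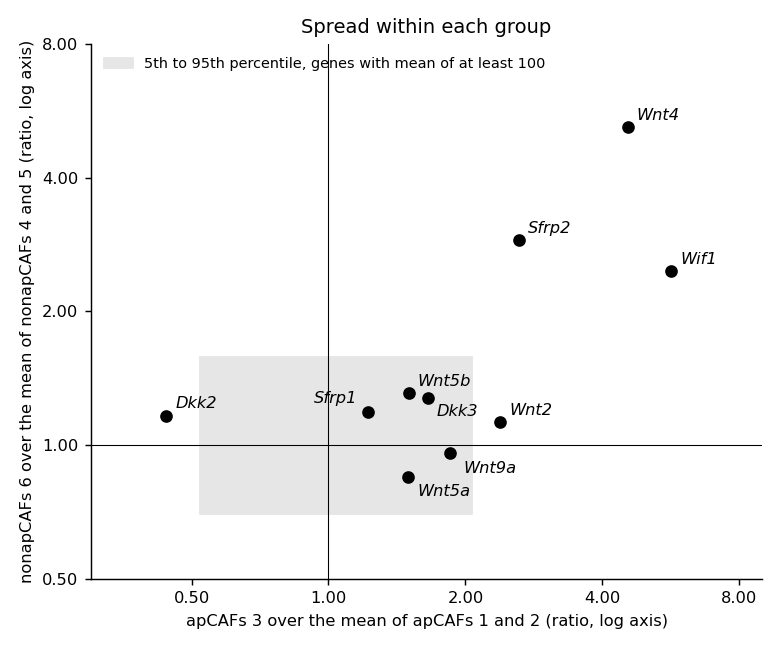
Each point is 1 of the 10 genes, placed by the ratio of apCAFs 3 to the mean of apCAFs 1 and 2 (horizontal, log axis) and of nonapCAFs 6 to the mean of nonapCAFs 4 and 5 (vertical, log axis); the grey box spans the 5th to 95th percentile of the 17829 genes averaging 100 or more on each axis. Wnt4, Sfrp2 and Wif1 lie beyond the box on both axes, and Sfrp1, Dkk3, Wnt5a, Wnt5b and Wnt9a lie inside it.

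Beyond the 10 genes, 82 other genes of the Wnt pathway were grouped by role, and 81 of them were tested. limma called 11 higher in apCAFs and 0 lower, where 1 lay lower at an unadjusted p under 0.05 (Apcdd1, also the 1 gene that the authors' deposited table lists as lower; it was named after its values were seen). Of all genes tested, limma called 3.91% higher and 0.486% lower, or 5.87% and 0.0673% of those averaging 100 or more. At an unadjusted limma p under 0.05, 13.1% of all genes tested lay higher and 6.19% lower. The median log2 difference of the 81 was 0.32. These lists too were chosen with earlier results of these data known. The count of higher calls moved with single libraries, as it did over all genes: omitting apCAFs 1 left 1 (Rnf43), omitting apCAFs 2, nonapCAFs 4 or nonapCAFs 5 left 0, omitting nonapCAFs 6 left 3, and omitting apCAFs 3 gave 14. In each of these, 24 to 27 lay higher with an unadjusted limma p under 0.05. Of the 35644 to 35948 genes tested in them, 3796 to 4753 did. Over all genes tested, 1425 were called higher, and 347, 254, 271 and 301 without apCAFs 1, apCAFs 2, nonapCAFs 4 and nonapCAFs 5, 620 without nonapCAFs 6 and 1601 without apCAFs 3. The sizes moved less: the log2 difference was 3.15 to 3.78 for Rspo1 and 2.56 to 3.16 for Fzd1 over these omissions.

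The list of R-spondins and their receptors and the list of Wnt receptors and coreceptors held most of these calls. R-spondins are secreted proteins that strengthen Wnt signalling through LGR receptors by removing the ubiquitin ligases RNF43 and ZNRF3 from the membrane. Of 9 genes of this group 3 rose (median log2 1.52), where limma called 3.91% of all genes tested higher. Rspo1 had 1667, 1723 and 3456 in apCAFs 1, 2 and 3 and 155, 155 and 284 in nonapCAFs 4, 5 and 6 (11.3-fold, limma adjusted p = 0.0191), and Rspo3 was 10.2-fold higher (limma adjusted p = 0.024). Rnf43, which encodes a ligase that R-spondins remove, was 8.41-fold higher but faint, at 44 to 93 against 5 to 9 (limma adjusted p = 0.0184). Of 18 receptors and coreceptors 5 rose (median log2 1.21): the Frizzled genes Fzd1 (7.72-fold, limma adjusted p = 0.024), Fzd8 (4.91-fold, 0.0344) and Fzd2 (2.90-fold, 0.0408), and the ROR genes Ror1 (6.90-fold, 0.0386) and, outside the naming rule, Ror2 (3.19-fold, 0.044), whose products are Wnt5a receptors. The most abundant of them, Fzd1, had 22818, 21988 and 50511 in apCAFs 1, 2 and 3 and 3205, 3676 and 4668 in nonapCAFs 4, 5 and 6. The groups did not overlap for any of these 8 genes. They were picked by their limma calls, so this adds no support. Over all genes tested, 17.1% lay higher without overlap, and 25.5% of those averaging 100 or more.

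The intracellular relay and the secretion machinery gave no calls in limma. Over all genes tested limma called 3.91% higher and 0.486% lower, so lists of this size could hold none at that share alone. At an unadjusted limma p under 0.05, 13.1% lay higher and 6.19% lower. The authors' deposited table lists 20.6% of its genes as higher. Of 15 relay genes 0 passed (with p unadjusted, 1 higher and 0 lower; 3 higher in the authors' deposited table), with a median log2 difference of 0.03. The exception in size was Tcf7, a TCF/LEF factor gene named after its values were seen, with 999, 931 and 2019 in apCAFs 1, 2 and 3 and 457, 376 and 340 in nonapCAFs 4, 5 and 6 (log2 1.67, limma adjusted p = 0.0698); the authors' deposited table lists it as higher with an adjusted p of 3.25e-06. Ctnnb1, which encodes beta-catenin, had 62778 ± 1548 in apCAFs and 61828 ± 7949 in nonapCAFs (n = 3; log2 0.03, SE 0.15, limma adjusted p = 0.92), and the kinase gene Csnk1a1 had 35094 ± 3378 and 28147 ± 2305 (limma adjusted p = 0.308). Of the 2 secretion genes 0 passed (with p unadjusted, 1 higher; 1 in the authors' deposited table): Wls, the carrier that brings Wnts to the surface, had 23996 ± 1066 and 23529 ± 1811 (log2 0.03, limma adjusted p = 0.906), and Porcn, which adds the lipid, 486.0 ± 190.1 and 217.3 ± 123.3 (limma adjusted p = 0.253). The signs for Ctnnb1 and Wls turned under other scalings, to log2 -0.07 to -0.17 for Ctnnb1 and -0.07 to -0.12 for Wls.

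Known targets of beta-catenin were mixed. Of 13 such genes 3 rose (median log2 0.82), and 4 lay below 0. Among all genes tested limma called 3.91% higher. At an unadjusted limma p under 0.05, 7 of the 13 lay higher and 1 lower, where 13.1% and 6.19% of all genes tested did. The authors' deposited table lists 7 of the 12 it tested as higher and 1 as lower, against 20.6% and 9.77% of its genes. Nkd1, a feedback inhibitor, had 3767, 4028 and 11346 in apCAFs 1, 2 and 3 and 271, 361 and 349 in nonapCAFs 4, 5 and 6 (17.1-fold, limma adjusted p = 0.019). Tnfrsf19 was 8.84-fold (0.0221) and Dact1, which binds Dishevelled, 6.68-fold higher (0.0268). The feedback gene Axin2, named after its values were seen, had 2451, 2238 and 8398 against 334, 394 and 798 and did not pass (limma adjusted p = 0.077). The authors' deposited table lists Axin2 as higher with a DESeq2 adjusted p of 1.36e-07. Apcdd1, which encodes a membrane inhibitor of Wnt signalling, had 13653, 12668 and 5478 in apCAFs 1, 2 and 3 and 21899, 21474 and 22779 in nonapCAFs 4, 5 and 6 (limma adjusted p = 0.193); as for Dkk2, the groups did not overlap and apCAFs 3 was lowest.

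Of the 14 other ligands 1 (Wnt9b) was at 0 in all libraries and 0 of 13 passed in limma. With p unadjusted 2 lay higher and 0 lower. The authors' deposited table lists 2 of the 6 it tested as higher. Of the 13, 7 averaged under 10, near the floor, and 4 averaged 100 or more. Over all genes tested limma called 3.91% higher (13.1% with p unadjusted), and the authors' deposited table lists 20.6% as higher. Wnt7b had 5079, 4398 and 722 in apCAFs 1, 2 and 3 and 9179, 8423 and 6977 in nonapCAFs 4, 5 and 6 (limma adjusted p = 0.309). All apCAFs values lay under all nonapCAFs values, and apCAFs 3 was far below the other libraries. The log2 difference of Wnt7b was -1.69, but -0.78 without apCAFs 3 and -0.90 without apCAFs 3 and nonapCAFs 6. Wnt11 had 842, 1021 and 2065 against 528, 344 and 362 (3.00-fold, limma adjusted p = 0.108). Of the 11 other secreted inhibitors 0 passed in limma, and with p unadjusted 0 did in either direction. The authors' deposited table lists 1 of the 4 it tested as higher. Here too 7 averaged under 10 and 4 averaged 100 or more. Frzb, the Frizzled-related inhibitor first found in cartilage, had 1728 ± 42 and 1186 ± 444 (n = 3; limma adjusted p = 0.356), and Sfrp4 had 575, 814 and 532 in apCAFs 1, 2 and 3 and 1547, 1510 and 342 in nonapCAFs 4, 5 and 6, with overlap.

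**Figure D5:**
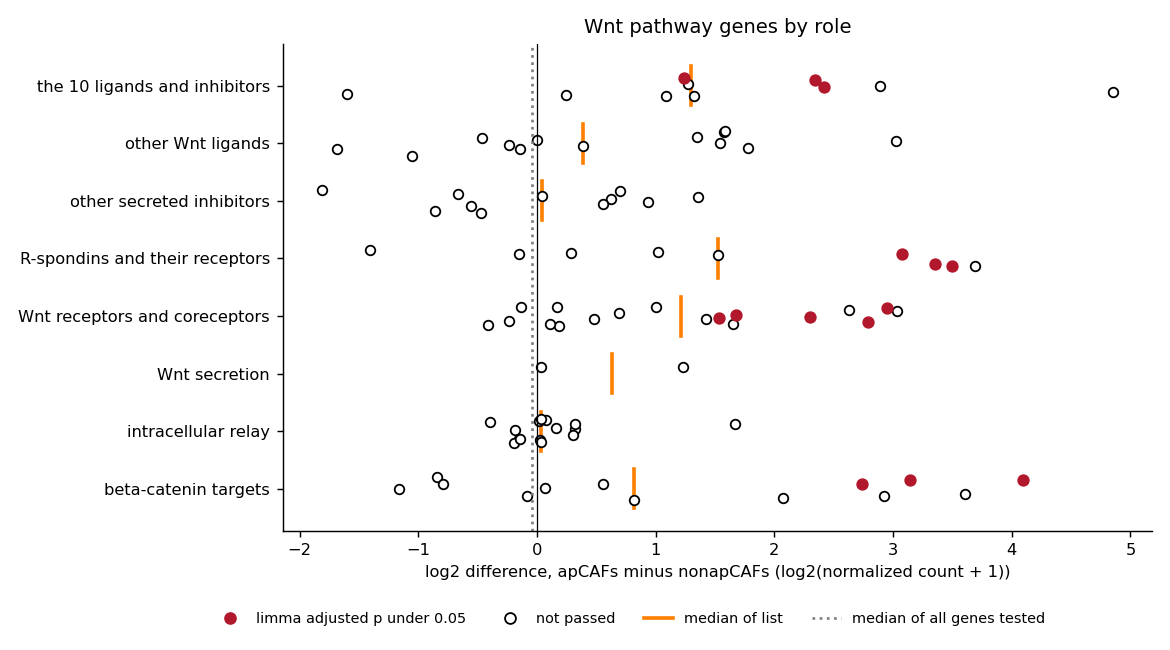
Log2 difference (apCAFs minus nonapCAFs) of each tested Wnt pathway gene, in rows by role, with filled points for genes that passed limma's adjusted threshold, orange bars for list medians and a dotted line for the median of all genes tested. Called genes appear in 4 rows, the 10 ligands and inhibitors, R-spondins and their receptors, the receptors and the beta-catenin targets. Of all genes tested, limma called 3.91% higher, so short lists could hold none at that share alone. Relay genes lie between -0.40 and 0.32, apart from Tcf7 at 1.67.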

How the data were processed

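RNA-seq values of 6 libraries were used, 3 per group as labelled. Per the file headers, the authors deposited normalized counts (whole numbers, treated here as a score), their log2, group means, a fold change as a ratio, a DESeq2 p-value with its adjusted p-value, and GC percent per gene, not used here. Per the submitters' processing notes, the authors used Trim Galore, Bowtie2, DESeq2 and mm10; no source used here gives the counter, annotation or strand setting.

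With limma 3.58.1 (R 4.3.3), log2(value + 1) was modelled by group alone for 36443 genes read in any library, as 18855 of 55298 were at 0 throughout. Two-sided p-values were adjusted by Benjamini-Hochberg across these genes and called at 0.05. Folds on this scale understate changes of low genes, and intervals are unadjusted. An exact permutation test of 3 against 3 cannot go below p = 0.1, and p-values measure only the spread between these libraries, which may be technical. Exon lengths came from GENCODE M21, whose coordinates match those of all 10 genes. The fit was tested on simulated data. Named were the 10 genes and, per pathway list, up to 4 called genes by smallest p or, with fewer than 2 called, the 2 with the highest mean; others are marked. The genes and lists were chosen with earlier results of these data known.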

Additional observations from a re-analysis of the deposited data

How the results depend on the processing

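No paired analysis was possible because no replicate number is shared by the groups; with an experiment term, each of the 6 possible pairings gave 0 higher calls among the 10 genes and 0 among the other 82 pathway genes (7 or 8 and 24 to 27 at an unadjusted p under 0.05), as did averaging the close libraries (apCAFs 1 with 2, nonapCAFs 4 with 5); none of all 36443 genes passed in these fits, so they say nothing about these genes. Against 3 higher calls among the 10 genes and 11 among the others, limma gave 6 and 22 with a pseudocount of 10, 6 and 22 on genes averaging 10 or more, 1 and 0 with no filter, and 7 and 24 with a variance trend; over all genes the 1425 higher calls became 2309, 2251, 350 and 2963. Of the alternatives chosen after the data were seen, testing genes averaging 100 or more gave 7 and 22, leaving out apCAFs 3 and nonapCAFs 6 gave 6 and 20, and a term for these libraries gave 17 among the others; the authors' deposited table lists 8 and 28. The planned settings with a pseudocount of 10, on genes averaging 10 or more and with a variance trend each called Wnt4, Wnt9a and Sfrp2. These genes were not called with no filter or with scaling to library totals, quantiles or upper quartiles. Leaving out 1 library gave 1 to 4 higher calls among the 10 genes and 0 to 14 among the others. Dkk2 was the 1 lower call with a pseudocount of 10, on genes averaging at least 10 or 100, with the variance trend, without apCAFs 3 and nonapCAFs 6, without apCAFs 1 and 2 (where the lone apCAFs library is assumed to vary like the others) and in the authors' deposited table; leaving out 1 library gave 0 to 1. Lower calls among the other pathway genes were 3 without apCAFs 1 and 2 (Apcdd1, Ccnd1 and Wnt7b), 1 in the authors' deposited table and 0 to 1 leaving out 1 library. Of the named genes, 3 turned sign, none of them called (leaving out 1 library, Wif1 ran from -0.57 to 0.75, Wls from -0.034 to 0.074 and Ctnnb1 from -0.082 to 0.086). Wif1 became -0.16 (quantile-normalized), -0.57 (without apCAFs 3), -0.10 (without nonapCAFs 5) and -0.14 (without apCAFs 3 and nonapCAFs 6). Wls became -0.12 (library totals), -0.098 (quantile), -0.072 (upper quartile), -0.0014 (without apCAFs 3), -0.034 (without nonapCAFs 6) and -0.065 (without apCAFs 3 and nonapCAFs 6). Ctnnb1 became -0.12 (library totals), -0.17 (quantile), -0.072 (upper quartile), -0.082 (without nonapCAFs 6), -0.061 (without apCAFs 3 and nonapCAFs 6) and -0.011 (without apCAFs 1 and 2). Where not stated, the cause was not tested. The median of all genes tested was -0.04, but -0.18 scaled to library totals, -0.19 quantile-normalized and -0.14 centred on upper quartiles. The other 9 of the 10 genes kept their sign under all alternatives run.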

Other observations

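Genes of the whole table whose profile over the 6 libraries was most like that of Wnt4, Sfrp2 or Sfrp1 were sought among 12858 genes that average 100 or more and whose symbol is not a clone or predicted name; the choice followed the size of the difference. Likeness is the root mean square difference between profiles of log2(value + 1), each centred on its own mean; these are descriptions with no test. For Wnt4 the nearest were Sprr2a2 (0.28), Saa1 (0.30) and Slc7a8 (0.31). Saa1, an acute-phase protein gene, had 1232, 1529 and 4433 in apCAFs 1, 2 and 3 and 57, 56 and 273 in nonapCAFs 4, 5 and 6, and the amino acid transporter gene Slc7a8 had 1757, 1635 and 5786 against 58, 70 and 227. Sprr2a2 and Saa1 belong to families of near-identical copies, so their own values are less certain.

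For Sfrp2 the nearest were Ppl (0.13), Cfi (0.13) and Hspb1 (0.16). Ppl, which encodes the desmosomal plakin periplakin, had 2278, 2213 and 5173 in apCAFs 1, 2 and 3 and 255, 293 and 985 in nonapCAFs 4, 5 and 6. Cfi encodes complement factor I and had 227, 228 and 474 against 26, 28 and 86. For Sfrp1 the nearest were Ptprd (0.11), Rab11fip1 (0.13) and Lratd2 (0.14). Ptprd, a receptor phosphatase gene, had 3265, 3100 and 3332 in apCAFs 1, 2 and 3 and 540, 603 and 781 in nonapCAFs 4, 5 and 6.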
